A study of Mus musculus with 16 samples.

Results

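The genes described here are 37 lysosomal genes: 10 cathepsins, 7 other hydrolases, 6 genes of lipid and cholesterol handling, 6 genes of lysosomal membrane proteins and progranulin, the transcription factors Tfeb and Tfe3, and 6 subunits of the vacuolar proton pump (V-ATPase), 3 each of its V0 and V1 sectors. They were chosen by name, and each was looked up in the authors' table of log2 CPM, read counts scaled to library depth on a log2 scale. Of the 37 members, 36 had a row among the 16707 rows of that table, and Ctss, which encodes cathepsin S, had none.

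RNA was sequenced from primary astrocytes cultured from the brains of pups at postnatal day 6 and enriched with beads against the astrocyte antigen ACSA2. The pups were either C57BL/6J wild type (WT) or homozygous for a germline deletion of Nlrx1 on that background (Nlrx1-/-, called KO here), so every cell of a KO culture carried the deletion. Each of 4 WT and 4 KO litters gave a pair of wells, 1 treated with vehicle and 1 with LPS at 500 ng/mL plus IFNγ at 10 ng/mL (LPS+IFNγ) for 24 h, which made 16 libraries in 4 groups of 4. LPS is a bacterial cell wall component that activates Toll-like receptor signalling, IFNγ is a cytokine of T and NK cells, and NLRX1 is a NOD-like receptor family protein found at mitochondria.

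Lysosomes are acidic compartments in which proteins, glycans, lipids and nucleic acids delivered by endocytosis, phagocytosis and autophagy are broken down. The V-ATPase pumps protons into the lumen, the cathepsins cut proteins at the acidic pH so reached, and glycosidases and lipases strip sugars and lipids, whose loss causes lysosomal storage disease. TFEB and TFE3 belong to the MiT/TFE factors, which bind the E-box CACGTG in the promoters of many lysosomal genes, a set known as the CLEAR network. In antigen presentation, cathepsins trim internalized proteins and the invariant chain of MHC class II.

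The libraries held between 27259420 and 43752903 read pairs with a median of 35554625, and each of the 36 members with a row had at least 71.3 estimated reads in every library. Nlrx1, the deleted gene, had a log2 CPM of 4.44, 4.13, 4.11 and 4.21 in the 4 WT vehicle libraries against 2.24, 2.96, 1.84 and 2.85 in the KO vehicle libraries. After LPS+IFNγ it stood at 4.08, 4.09, 4.12 and 4.19 in WT and 2.19, 2.09, 1.09 and 2.23 in KO. All 8 KO libraries were below all 8 WT libraries, and the difference passed the test in vehicle (limma, adjusted p = 0.0497) and after LPS+IFNγ (adjusted p = 0.00222). That test took its spread from all 16 libraries, with the wells of a litter treated as independent. From the 8 vehicle libraries only, 0 rows passed, so Nlrx1 did not. The cultures expressed all 10 astrocyte markers examined, with summed levels between 2692 and 6867 TPM, a level per transcript length and library depth. Of 15 markers of microglia and macrophages, 13 had no row in the log2 CPM table, among them Csf1r, Aif1 and Tmem119, and their summed level did not pass 9.18 TPM in any library. Litters 2 and 4 of the KO group stood apart in some markers and not in others. Gfap, the astrocyte filament gene, had a log2 CPM of 9.51, 7.37, 10.45 and 8.35 in the 4 KO vehicle libraries and 9.70, 10.56, 10.55 and 11.34 in the WT ones, and Mbp, a myelin gene, had 5.93, 2.49, 7.22 and 3.0 in KO and 6.47, 6.56, 7.84 and 7.73 in WT. In the same KO libraries the astrocyte markers Aldh1l1 and Slc1a3 had 9.76, 9.67, 9.59 and 9.76, and 11.15, 11.24, 11.30 and 11.05. The oligodendrocyte lineage markers Olig2 and Cspg4 had 9.31, 9.54, 8.56 and 9.42, and 5.87, 5.79, 5.39 and 5.76, lowest in litter 3.

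Per length, as TPM summed over the transcripts of a gene, the members covered a wide range. Psap, the precursor of the saposin activators of lipid hydrolysis, was the highest, with 1191 ± 187 TPM (SD, n = 4) in WT vehicle libraries, followed by Lamp1, a heavily glycosylated coat protein of the lysosomal membrane, with 875 ± 106, and the aspartic protease gene Ctsd with 682 ± 102. The means of Psap and Lamp1 lay apart by more than the sum of their SDs, and those of Lamp1 and Ctsd by less. Ctsb, Lamp2 and Ctsl stood at 379 ± 53.4, 321 ± 52.5 and 275 ± 43 TPM, with overlapping spreads between neighbours. Among the lowest were Tfeb with 13.2 ± 1.83 and the α-galactosidase gene Gla with 7.38 ± 1.06 TPM. The TPM of Cln3, Ctsc, Mcoln1, Gla and, by less, Atp6v1h are too low, because some of their transcripts could not be paired with a symbol.

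Ctss was near the limit of detection. Its reads numbered 3, 0, 5 and 13 in the WT vehicle libraries, 0, 2, 2 and 1 in WT after LPS+IFNγ, 0, 0, 4 and 0 in KO vehicle libraries and 2, 0, 7 and 0 in KO after LPS+IFNγ. In all, 39 reads were assigned to Ctss and 7 of 16 libraries had none. A count of 0 allows up to 3 reads, between 0.0686 and 0.110 CPM at these depths, counting error only. Cathepsin S is the cathepsin best known for cutting the invariant chain in antigen-presenting cells, and cathepsin L can also cut it. Ctsl had between 3539 and 9275 reads in a library.

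Promoter windows from 250 bases before to 50 bases after the gene start (RefSeq, GRCm38.p6, whose coordinates these windows carry) were found for 31 of the 37 members. None was found for Asah1, Atp6v1b2, Atp6v1h, Ctsb, Ctsh and Npc1. The E-box CACGTG, its own reverse complement, was present in 13 of 31 windows (41.9%) and in 7.15% of all 32851 windows. All windows, here and for the patterns below, include those of genes without a row in the log2 CPM table. Among the rows with a window, 1402 had the E-box and 11445 lacked it. The longer palindrome TCACGTGA, which contains the E-box, was present in 7 of 31 (22.6%) against 0.974% of all, and the same palindrome with a further G before and C after it in that of Cln3 alone and in 0.326% of all. The members with an E-box were Atp6v0b, Atp6v0d1, Atp6v1a, Cln3, Ctsa, Ctsd, Ctsf, Ctsl, Gaa, Gla, Glb1, Lamp1 and Mcoln1, with 4 copies in Lamp1. The windows of the 7 of them that passed the test in at least 1 response are shown around the copy nearest to the gene start, read on the gene's strand, with the E-box in capitals.
Cln3, chr7:126583335-126583374, minus strand: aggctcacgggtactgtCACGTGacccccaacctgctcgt
Ctsa, chr2:164833761-164833800, plus strand: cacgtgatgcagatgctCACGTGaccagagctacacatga
Ctsf, chr19:4855069-4855108, plus strand: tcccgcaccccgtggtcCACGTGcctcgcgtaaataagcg
Ctsl, chr13:64370734-64370770, minus strand: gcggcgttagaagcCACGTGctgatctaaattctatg
Gaa, chr11:119267806-119267845, plus strand: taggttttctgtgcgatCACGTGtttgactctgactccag
Gla, chrX:134601177-134601216, minus strand: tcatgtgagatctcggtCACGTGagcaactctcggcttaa
Lamp1, chr8:13159129-13159168, plus strand: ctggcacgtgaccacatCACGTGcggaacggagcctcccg

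A pattern of interferon-responsive promoters was searched on both strands. A core of the interferon-stimulated response element, GAAA followed by any 2 bases and a further GAAA, was present in the windows of Ctso, Ctss and Lamp1, 3 of 31 members (9.68%), against 3.44% of all windows. None of these matches shared a base with an E-box. The matches of Ctso and Ctss are shown because IFNγ was part of the stimulus, with the match in capitals. That of Lamp1, 135 bases before the gene start, is not shown. Ctso held a further match beside the one shown, and they began 15 and 21 bases after the gene start.
Ctso, chr3:81932599-81932642, plus strand: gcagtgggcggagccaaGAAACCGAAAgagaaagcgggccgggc
Ctss, chr3:95526748-95526791, plus strand: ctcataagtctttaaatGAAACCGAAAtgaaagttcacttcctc

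The whole window is shown for Ctsc, the member with the largest response and for Grn, the member with the second largest rise in WT. Neither window held any of the patterns searched.
Ctsc, chr7:88277835-88278134, plus strand: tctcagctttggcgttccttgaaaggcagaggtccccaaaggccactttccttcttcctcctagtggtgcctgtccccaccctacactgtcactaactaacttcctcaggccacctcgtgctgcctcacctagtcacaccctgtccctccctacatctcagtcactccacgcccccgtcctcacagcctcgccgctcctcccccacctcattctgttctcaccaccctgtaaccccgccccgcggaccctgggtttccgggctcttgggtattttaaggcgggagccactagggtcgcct
Grn, chr11:102430257-102430556, plus strand: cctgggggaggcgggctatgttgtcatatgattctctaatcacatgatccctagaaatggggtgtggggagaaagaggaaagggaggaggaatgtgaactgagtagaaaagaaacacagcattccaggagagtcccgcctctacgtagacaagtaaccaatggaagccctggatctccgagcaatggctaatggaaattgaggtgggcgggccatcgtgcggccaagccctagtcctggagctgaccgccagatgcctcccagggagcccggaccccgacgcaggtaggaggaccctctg

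The first question of the design was how astrocytes of each genotype respond to LPS+IFNγ. In WT, 11 of 36 members rose and 7 fell (adjusted p under 0.05, limma with litters as blocks), against a background of 24.9% of all rows rising and 21.9% falling. In KO, 14 rose and 6 fell, against 26.6% and 25.5% of all rows. The median response of the members was 0.069 in WT and 0.025 in KO on the log2 scale, beside -0.016 and -0.020 over all rows. All 4 litters moved up for 16 members in WT and 13 in KO, where 31.2% and 29.6% of all rows did so, and all 4 moved down for 9 and 8 members, where 30.0% and 29.0% did. Ctsc and Grn stood out by size among the rises and Ctsf among the falls in both genotypes, and the next largest called change was the rise of Tfe3 in KO (1.55-fold). In such bulk libraries, fewer cells of a type and less RNA per cell cannot be told apart. Markers of other cells moved with the treatment. Of 9 markers of the oligodendrocyte lineage, 6 fell and 0 rose in each genotype, and their summed level went from a range of 673 to 887 TPM with vehicle to one of 449 to 644 after treatment in WT, and from 581 to 717 TPM to 391 to 516 in KO. Neuron markers gave 2 rises and 1 fall of 5 in WT and 2 rises and 2 falls in KO. Their summed level went from 18.9 to 22.7 TPM with vehicle to 65.2 to 104 in WT, and from 14.1 to 22.7 to 66.6 to 93.8 in KO. That of 4 ependymal markers went from 148 to 217 TPM to 90.0 to 132 in WT, and from 78.3 to 157 to 47.8 to 85.5 in KO. The astrocyte markers gave 3 rises and 4 falls of 10 in WT and 2 rises and 5 falls in KO. Their part in the members' responses was not tested.

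The split between rises and falls depended on the scaling of the libraries. The authors' values carry TMM factors that raise the treated libraries against the vehicle ones, and without those factors the median of all rows moved by -0.17 on the log2 scale in both genotypes. The calls over all rows then went from 4154 up and 3656 down to 2598 up and 6036 down in WT, and those over members from 11 up and 7 down to 6 up and 14 down. Under each of 4 other scalings (upper quartile factors, quantile normalization, unadjusted library sizes and equal library medians), Ctsc, Ctso, Grn, Lamp2, Smpd1 and Asah1 kept their rise in WT, and Ctsc, Grn, Lamp2, Smpd1, Tfe3 and Atp6v1h kept theirs in KO. Of the falls, 6 of 7 were kept in WT, with Cln3 the exception in summed counts that lack most of its transcripts, and 6 of 6 in KO.

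**Figure D1:**
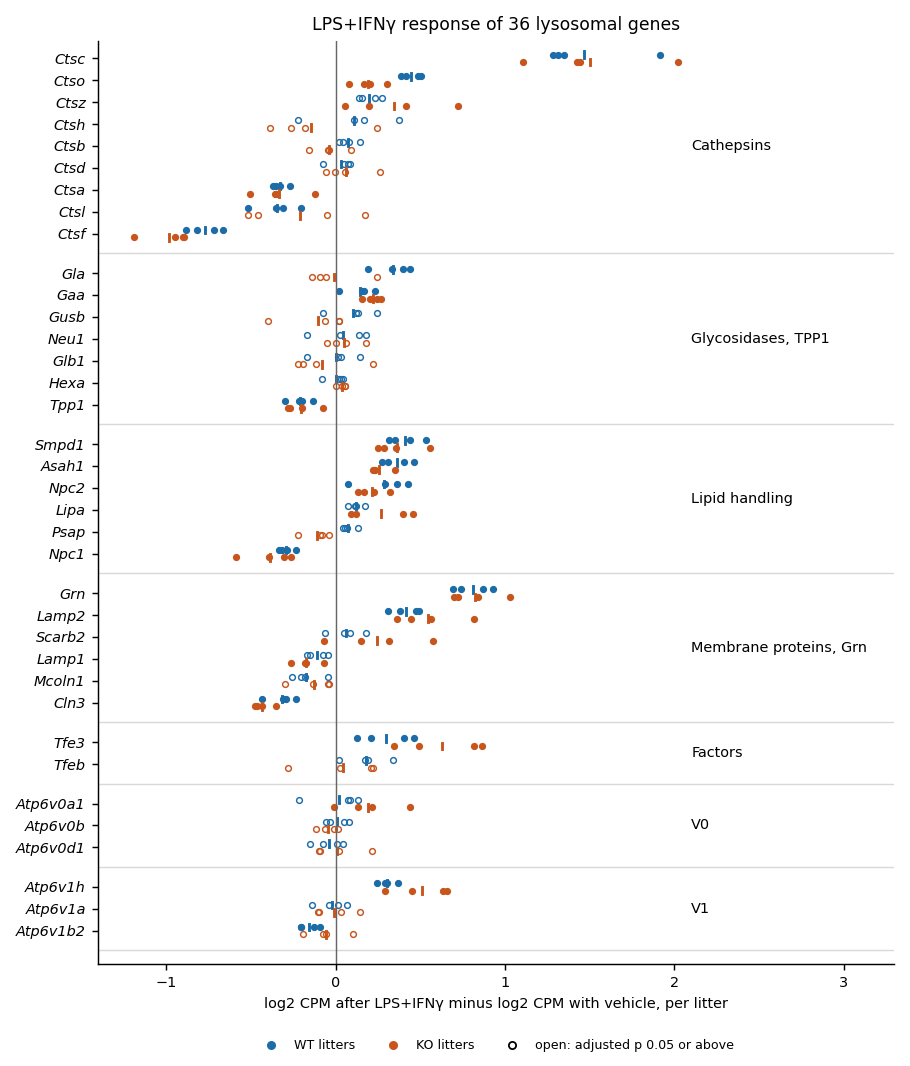
Litter-paired responses of the 36 members, as log2 CPM after LPS+IFNγ minus log2 CPM with vehicle (horizontal axis), grouped by role; each point is 1 litter, bars are means of 4 litters, and filled points mark an adjusted p under 0.05. Ctsc and Grn lie farthest right, with litter responses from 1.11 to 2.02 and from 0.69 to 1.03, and Ctsf lies farthest left, from -1.19 to -0.66.

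Among the cathepsins, 2 of 9 with a row rose and 3 fell in WT, beside 24.9% and 21.9% of all rows. In KO 3 rose and 2 fell, beside 26.6% and 25.5%. Ctsc encodes cathepsin C, a dipeptidyl peptidase that activates serine proteases of immune cells (chr7:87927092-87960096 in GRCm39). Its log2 CPM was 5.77, 5.84, 5.09 and 5.54 in WT vehicle libraries and 7.06, 7.16, 7.01 and 6.89 after LPS+IFNγ, and in KO 6.08, 6.82, 5.97 and 6.14 before and 7.52, 8.25, 7.08 and 8.16 after treatment. The treated libraries were above the vehicle libraries of the same genotype without overlap. The rise was 1.47 ± 0.13 (log2 ± SE), or 2.76-fold, in WT (adjusted p = 2.5e-06) and 1.50 ± 0.13 in KO (adjusted p = 1.7e-06).

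Ctso, a little studied papain family cathepsin (chr3:81839873-81867246), rose in every litter. Its log2 CPM was 5.73, 5.98, 5.90 and 6.18 in WT vehicle libraries and 6.12, 6.46, 6.41 and 6.60 after treatment, and in KO 5.76, 5.70, 6.03 and 5.76 before and 6.07, 5.90, 6.11 and 5.93 after treatment. In WT the treated library of litter 1 lay below the vehicle library of litter 4, and the other 3 treated libraries lay above all vehicle libraries. The rise was 0.45 ± 0.053 in WT (adjusted p = 2.8e-05) and 0.19 ± 0.053 in KO (adjusted p = 0.00983), the latter of which was not called under each of the other scalings.

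Ctsf, which encodes the papain family cathepsin F (chr19:4905118-4915986), fell most. Its log2 CPM went from 5.71, 6.19, 6.12 and 6.38 to 4.83, 5.37, 5.40 and 5.72 in WT, and from 5.92, 5.65, 6.06 and 6.05 to 4.97, 4.75, 5.17 and 4.87 in KO. In KO the groups did not overlap, while in WT the highest treated library was level with the lowest vehicle one. The level fell by 0.77 on the log2 scale in WT, to 0.586 of vehicle (adjusted p = 1.8e-06), and to 0.506 of vehicle in KO (adjusted p = 1.9e-07).

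Ctsl, the gene of the endopeptidase cathepsin L, had a log2 CPM of 7.20, 7.69, 7.63 and 7.78 in WT vehicle libraries and 7.0, 7.33, 7.33 and 7.26 after treatment. Its response in WT was -0.35 ± 0.10 (adjusted p = 0.0126). The KO libraries held 7.21, 6.81, 7.50 and 7.11 with vehicle and 6.75, 6.98, 6.98 and 7.07 after treatment, a response of -0.21 ± 0.10 (adjusted p = 0.0909). Litters 1, 3 and 4 of KO moved down and litter 2 moved up. Ctsa, the protective protein that shields the neuraminidase and β-galactosidase, fell in all 8 litters, with 6.88, 7.12, 7.11 and 7.39 before and 6.56, 6.85, 6.76 and 7.02 after treatment in WT, and in KO 6.98, 6.81, 7.09 and 7.09 before and 6.63, 6.69, 6.73 and 6.59 after treatment. Its responses were -0.33 ± 0.058 in WT (adjusted p = 6.2e-04) and -0.33 ± 0.058 in KO (adjusted p = 4.6e-04).

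Ctsd, the gene of the main aspartic protease and a usual lysosome marker, did not pass the test, with 8.86, 9.20, 9.13 and 9.42 in WT vehicle libraries and 8.95, 9.27, 9.17 and 9.35 after treatment, and in KO 8.92, 8.67, 9.15 and 8.95 before and 8.98, 8.94, 9.10 and 8.94 after treatment. The groups overlapped in both genotypes, and the responses were 0.034 ± 0.055 (adjusted p = 0.64) and 0.065 ± 0.055 (adjusted p = 0.349). Ctsb and Ctsh did not pass in either genotype, with responses of 0.073 and 0.11 in WT and -0.038 and -0.15 in KO. Ctsz, a carboxypeptidase gene, was called in KO alone (0.35 ± 0.087, adjusted p = 0.00559, against 0.20 ± 0.087 in WT, adjusted p = 0.0802), not under each of the other scalings, and the difference between its responses was 0.15 ± 0.12 (adjusted p = 0.585).

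**Figure D2:**
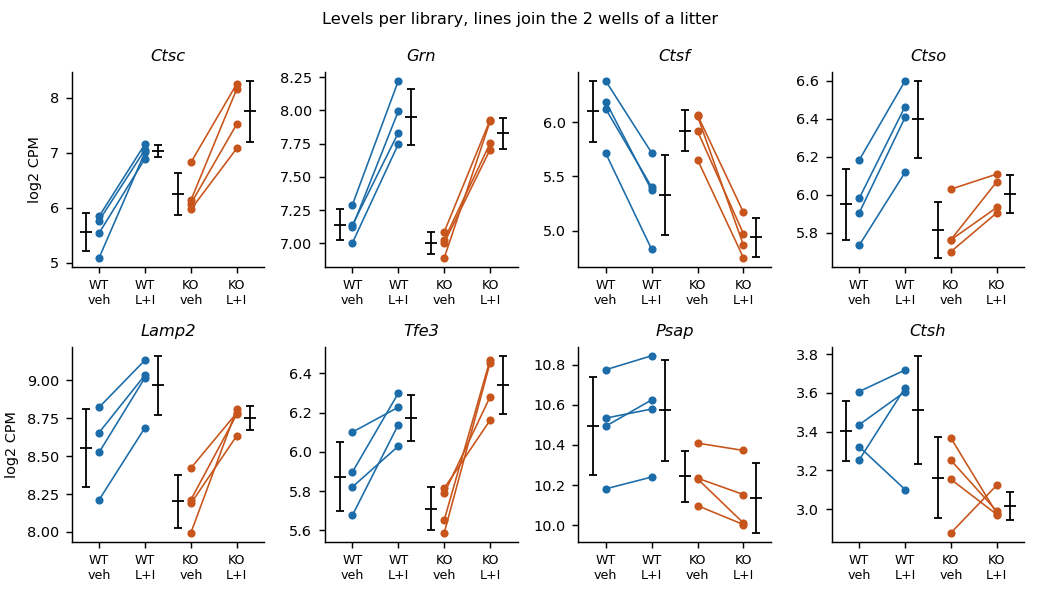
Log2 CPM of 8 members in the 16 libraries; lines join the vehicle (veh) and LPS+IFNγ (L+I) wells of a litter, black bars give the mean ± SD of 4 libraries, and each panel has its own axis, which does not start at 0. Ctsc rises and Ctsf falls in every litter, Ctso rises less in the KO litters than in the WT litters, and Psap lines point up in WT and down in KO.

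Of the 7 glycosidases and peptidases outside the cathepsins, 2 rose and 1 fell in WT, beside 24.9% and 21.9% of all rows. In KO 1 rose and 1 fell, beside 26.6% and 25.5%. Gaa, which breaks down glycogen, rose by 0.14 ± 0.046 in WT (adjusted p = 0.023) and by 0.22 ± 0.046 in KO (adjusted p = 0.00179). Gla, the enzyme lacking in Fabry disease, rose by 0.34 ± 0.10 in WT (adjusted p = 0.0168), with a KO response of -0.01. The WT responses of both were below 0 under at least 1 other scaling. Tpp1, which removes tripeptides from protein ends, had a log2 CPM of 7.15, 7.50, 7.42 and 7.71 in WT vehicle libraries and 7.02, 7.30, 7.12 and 7.50 after treatment, and in KO 7.28, 7.13, 7.31 and 7.29 before and 7.01, 7.06, 7.12 and 7.01 after treatment. It fell in all 8 litters, with overlapping groups in WT and groups apart by a narrow gap in KO, and with responses of -0.21 ± 0.049 (adjusted p = 0.00401) and -0.21 ± 0.049 (adjusted p = 0.00406). Hexa, Gusb, Glb1 and Neu1, which cut gangliosides, glucuronides, galactosides and sialic acid, did not pass in either genotype, with responses from -0.10 (Gusb in KO) to 0.11 (Gusb in WT).

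Of the 6 genes of lipid and cholesterol handling, 3 rose and 1 fell in WT, beside 24.9% and 21.9% of all rows. In KO 4 rose and 1 fell, beside 26.6% and 25.5%. Smpd1, acid sphingomyelinase, which makes ceramide, had a log2 CPM of 6.40, 6.39, 6.48 and 6.49 in WT vehicle libraries and 6.71, 6.92, 6.84 and 6.93 after treatment, with no overlap. In KO it had 6.29, 5.88, 6.48 and 6.15 and 6.65, 6.44, 6.77 and 6.40, where litters 2 and 4 were the lower ones under both conditions. The rises were 0.41 ± 0.06 (adjusted p = 1.5e-04) and 0.36 ± 0.06 (adjusted p = 3.2e-04). Asah1, acid ceramidase, which breaks ceramide down, rose by 0.36 ± 0.048 in WT (adjusted p = 6.7e-05) and 0.26 ± 0.048 in KO (adjusted p = 7.6e-04), the latter not called under each of the other scalings.

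The partners of cholesterol export from lysosomes went opposite ways. Npc1, the membrane transporter, had a log2 CPM of 7.29, 7.48, 7.40 and 7.87 in WT vehicle libraries and 6.97, 7.25, 7.07 and 7.58 after treatment, and in KO 7.37, 7.12, 7.19 and 7.44 before and 6.98, 6.82, 6.93 and 6.85 after treatment. It fell in all 8 litters, without overlap of the groups in KO, with responses of -0.29 ± 0.055 (adjusted p = 9.8e-04) and -0.39 ± 0.055 (adjusted p = 1.0e-04). Npc2, the soluble carrier that hands cholesterol to it, rose by 0.29 ± 0.058 in WT (adjusted p = 0.00162) and 0.21 ± 0.058 in KO (adjusted p = 0.00902), and was above 0 but without a call under at least 1 other scaling in each genotype. Lipa, acid lipase, was called in KO, at 0.27 ± 0.074, and not in WT, at 0.12 ± 0.074, and the difference between these responses was not called (adjusted p = 0.508). Psap did not pass in either genotype and is described with the differences between the responses.

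Grn led the membrane proteins and progranulin, of which 2 of 6 rose and 1 fell in WT, beside 24.9% and 21.9% of all rows. In KO 3 rose and 2 fell, beside 26.6% and 25.5%. Grn encodes progranulin, a secreted and lysosomal glycoprotein needed for normal lysosome function (chr11:102321141-102327874). Its log2 CPM was 7.01, 7.12, 7.14 and 7.29 in WT vehicle libraries and 7.75, 7.99, 7.83 and 8.22 after LPS+IFNγ, and in KO 7.0, 6.89, 7.03 and 7.09 before and 7.71, 7.92, 7.75 and 7.93 after treatment. Every treated library was above every vehicle library, and the responses were 0.81 ± 0.061 in WT, or 1.75-fold (adjusted p = 6.0e-07), and 0.82 ± 0.061 in KO (adjusted p = 4.6e-07).

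The main coat proteins of the lysosomal membrane differed from each other. Lamp2, which also serves in chaperone-mediated autophagy, had a log2 CPM of 8.21, 8.66, 8.52 and 8.82 in WT vehicle libraries and 8.69, 9.04, 9.02 and 9.13 after treatment, and in KO 8.19, 7.99, 8.42 and 8.21 before and 8.63, 8.81, 8.79 and 8.78 after treatment. It rose in all 8 litters, by 0.42 ± 0.066 in WT (adjusted p = 2.9e-04) and 0.55 ± 0.066 in KO (adjusted p = 2.7e-05), and the KO groups did not overlap. Lamp1 went the other way in all 8 litters, with 9.50, 9.72, 9.72 and 9.95 before and 9.33, 9.67, 9.64 and 9.80 after treatment in WT, and in KO 9.48, 9.32, 9.66 and 9.47 before and 9.30, 9.25, 9.48 and 9.20 after treatment. Its responses of -0.11 ± 0.046 in WT (adjusted p = 0.0719) and -0.17 ± 0.046 in KO (adjusted p = 0.00745) passed the test in KO alone, and under the 4 other scalings in both genotypes.

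Cln3, the membrane protein lacking in juvenile neuronal ceroid lipofuscinosis, had a log2 CPM of 4.80, 5.12, 4.95 and 5.19 in WT vehicle libraries and 4.57, 4.69, 4.64 and 4.90 after treatment, and in KO 4.89, 4.79, 4.81 and 4.92 before and 4.43, 4.44, 4.33 and 4.48 after treatment. The KO groups did not overlap, and the responses were -0.32 ± 0.065 (adjusted p = 0.00175) and -0.43 ± 0.065 (adjusted p = 1.5e-04). Mcoln1, the lysosomal calcium channel, moved down in all 8 litters without passing the test (-0.17 in WT and -0.13 in KO). Scarb2, the receptor that brings glucocerebrosidase to lysosomes, was called in KO (0.24 ± 0.082, adjusted p = 0.0256) and not in WT (0.065 ± 0.082), and the difference between the responses was not called (adjusted p = 0.462).

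Of the transcription factors, Tfe3 rose and Tfeb did not pass the test. Tfe3 (chrX:7628761-7641444) had a log2 CPM of 5.68, 5.90, 5.82 and 6.10 in WT vehicle libraries and 6.14, 6.30, 6.03 and 6.23 after treatment, and in KO 5.79, 5.59, 5.81 and 5.65 before and 6.28, 6.45, 6.16 and 6.47 after treatment. In KO every treated library was above every vehicle library, with the largest rises in litters 2 and 4, while in WT the groups overlapped. The rise was 0.30 ± 0.088 in WT (adjusted p = 0.0146), called under none of the 4 other scalings, and 0.63 ± 0.088 in KO (adjusted p = 8.6e-05). Tfeb had 3.67, 3.68, 3.99 and 4.06 in WT vehicle libraries and 3.86, 4.02, 4.02 and 4.23 after treatment, and in KO 3.72, 3.40, 4.02 and 3.59 before and 3.75, 3.61, 4.24 and 3.31 after treatment, with responses of 0.18 ± 0.10 (adjusted p = 0.17) and 0.045 ± 0.10 (adjusted p = 0.741).

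Of the 6 V-ATPase subunits, 1 rose and 1 fell in WT and 2 rose and 0 fell in KO, beside 24.9% and 21.9% of all rows in WT and 26.6% and 25.5% in KO. Under the 4 other scalings 0 to 1 rose and 1 to 4 fell in WT, and 1 rose and 2 to 4 fell in KO. Those scalings gave 2598 to 3132 rises and 4482 to 6036 falls over all rows (16066 or 16707) in WT. In KO they gave 2836 to 3473 rises and 5131 to 6527 falls over all rows. Atp6v1h, the regulatory H subunit of the V1 sector, had a log2 CPM of 5.71, 5.63, 5.76 and 5.83 in WT vehicle libraries and 6.00, 5.93, 6.12 and 6.07 after treatment, and in KO 5.59, 5.62, 5.77 and 5.51 before and 6.04, 6.28, 6.06 and 6.15 after treatment. The groups of each genotype did not overlap, and the rises were 0.30 ± 0.065 in WT (adjusted p = 0.00245), called under 2 of the 4 other scalings, and 0.51 ± 0.065 in KO (adjusted p = 4.5e-05). Atp6v1b2, the B subunit at the nucleotide binding sites, fell by 0.16 on the log2 scale in WT (adjusted p = 0.0274), with a KO response of -0.057. This fall lost its call without WT litter 1, 2 or 4. Atp6v0a1, the membrane subunit abundant in brain, was called in KO (0.19 ± 0.074, adjusted p = 0.0449) and not in WT (0.018 ± 0.074), with no call for the difference between the responses (adjusted p = 0.425). Its call in KO was lost under each of the 4 other scalings and when any KO litter other than litter 3 was left out. Atp6v0b, Atp6v0d1 and the catalytic subunit gene Atp6v1a did not pass, with responses between -0.043 and 0.011 in KO and between -0.041 and 0.0096 in WT.

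The responses are set out here by the presence of the E-box. Of the 13 members with an E-box, 2 rose (Gaa and Gla) and 4 fell (Cln3, Ctsa, Ctsf and Ctsl) in WT, with a median response of -0.041. Of the 17 without one that had a row, 7 rose and 1 (Tpp1) fell, with a median of 0.18. In KO the members with an E-box gave 1 rise and 4 falls with a median of -0.077, and those without gave 11 rises and 1 fall with a median of 0.21. Over all 1402 rows whose promoter window held an E-box, 28.9% rose and 20.0% fell in WT, with a median of 0.025, and 435 of these rows rose and 310 (22.1%) fell in KO. Over the 11445 rows with a window that lacked it, 25.3% rose and 21.9% fell in WT, and 26.9% rose and 25.9% fell in KO. The members with the largest rises, Ctsc and Grn, had windows without the letters CACGTG, and Ctsf, with the largest fall, had a window with them. Under the 4 other scalings, the members with an E-box gave 0 to 1 rises and 6 to 10 falls in WT and 0 to 1 rises and 7 to 10 falls in KO, and those without gave 5 to 6 rises and 1 to 3 falls in WT and 5 to 6 rises and 3 to 4 falls in KO. The medians then lay between -0.21 and -0.15 with an E-box and between 0.014 and 0.12 without in WT, and between -0.25 and -0.17 and between 0.037 and 0.12 in KO. All rows shifted down too, with 2598 to 3132 rises and 4482 to 6036 falls in WT, and 2836 to 3473 and 5131 to 6527 in KO. Their medians lay between -0.18 and -0.092 in WT and between -0.19 and -0.092 in KO under these scalings. The counts of members describe 30 genes chosen by name, without a test.

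**Figure D3:**
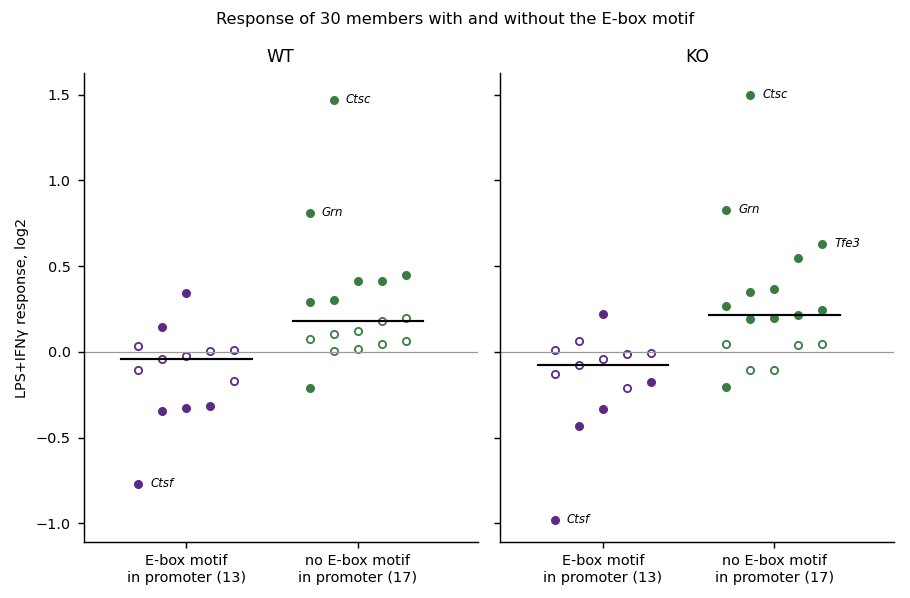
LPS+IFNγ response (vertical axis, log2) of the 30 members with both a promoter window and a row, split by presence of the E-box; each point is 1 gene, filled where the adjusted p was under 0.05, and the horizontal bars are medians. The medians are -0.041 with and 0.18 without an E-box in WT, and -0.077 and 0.21 in KO.

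The question of the interaction was whether the responses of WT and KO astrocytes differ. None of the 36 members passed (0 up, 0 down), and neither did any of the 16707 rows (0.0%), with 6 members and 2786 rows (16.7%) under an unadjusted p of 0.05 in limma. On summed counts, edgeR called 0 members and 0 of all rows, and DESeq2 called 0 members while it called 125 rows up and 237 down. Without litter 3 of KO, 378 rows were called up and 444 down, and still 0 members. The members with the lowest p were Ctso, Psap, Tfe3, Gla and Ctsf. Ctso rose by 0.39, 0.48, 0.50 and 0.42 in the WT litters and by 0.31, 0.20, 0.079 and 0.17 in the KO litters. These ranges did not overlap, and the difference was -0.26 ± 0.075 (adjusted p = 0.177).

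Psap (chr10:60113431-60138380) had a log2 CPM of 10.18, 10.53, 10.49 and 10.77 in WT vehicle libraries and 10.24, 10.58, 10.62 and 10.84 after treatment, and in KO 10.23, 10.10, 10.41 and 10.23 before and 10.15, 10.00, 10.37 and 10.01 after treatment. Its litter responses were 0.059, 0.045, 0.13 and 0.07 in WT and -0.081, -0.094, -0.036 and -0.22 in KO, positive in 4 of 4 and negative in 4 of 4 litters. The difference was -0.18 ± 0.065 (adjusted p = 0.203), while under the other scalings the WT response lay between -0.18 and -0.016, below 0 like that of KO. Tfe3 responses were 0.46, 0.40, 0.21 and 0.13 in WT and 0.49, 0.87, 0.35 and 0.82 in KO, a difference of 0.33 ± 0.12 (adjusted p = 0.223), with litters 2 and 4 of KO, those low in Gfap and Mbp, at the top. The part of these litters' markers in the result was not tested. Gla differed by -0.35 ± 0.15 and Ctsf by -0.21 ± 0.092, with an adjusted p of 0.258 and 0.278, and the Gla difference was above 0 in the summed counts, which lack some of its transcripts. For Ctsc and Grn the differences between the responses were 0.034 ± 0.18 and 0.015 ± 0.086 (log2 ± SE).

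KO and WT levels were then compared within each treatment. In vehicle, 0 of 36 members passed the test in limma, against 0.0% of all rows higher and 0.00599% lower (1 row, Nlrx1), and 8 members had an unadjusted p under 0.05 against 21.1% of all rows. The difference was below 0 for 31 of 36 members, where 48.7% of all rows were below 0, with a median of -0.14. On summed counts, edgeR called 0 members and 0 of all rows, and DESeq2 0 members while it called 448 rows higher and 253 lower. The members share libraries and are not independent, so the count of 31 describes these libraries. KO litter 2 had the lowest level of the 4 KO vehicle libraries for 23 of the 36 members. Of the markers in vehicle, 7 of 9 of the oligodendrocyte lineage lay below 0 with a median difference of -1.42, and 8 of 10 astrocyte markers did with a median of -0.36, with 0 calls in either list. Their part in the members' differences was not tested. The 5 with the lowest p were Ctsl, Scarb2, Ctsc, Lamp2 and Gusb. Ctsl had 7.58 ± 0.26 (SD, n = 4) in WT and 7.16 ± 0.29 in KO, a difference of -0.42 ± 0.14 (adjusted p = 0.124). Scarb2 had 8.10, 8.41, 8.46 and 8.64 in WT and 8.12, 7.73, 8.40 and 7.85 in KO, with KO litters 2 and 4 the lowest of all 8, and a difference of -0.38 ± 0.13 (adjusted p = 0.133).

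Lamp2 differed by -0.35 ± 0.12 (adjusted p = 0.137). Gusb, with 5.30, 5.21, 5.28 and 5.29 in WT and 5.50, 5.62, 5.31 and 5.42 in KO, differed by 0.19 ± 0.078 (adjusted p = 0.186). Ctsc and Gusb were the 2 members whose KO vehicle libraries all lay above the WT ones (6.02% of all rows did so), and no member's lay all below (3.43% of all rows). For Ctsc the difference was 0.69 ± 0.24 (adjusted p = 0.133). The highest Ctsc level with vehicle was that of KO litter 2, followed by KO litter 4.

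After LPS+IFNγ, 2 of 36 members (5.56%) were lower in KO and 0 higher, against 4.41% and 4.4% of all rows. The difference was below 0 for 27 of 36 members, where 50.5% of all rows were, with a median of -0.13. Ctso, with levels of 6.12, 6.46, 6.41 and 6.60 in WT and 6.07, 5.90, 6.11 and 5.93 in KO, lay lower in all 4 KO libraries than in any WT library, though narrowly for the nearest pair, and the difference was -0.39 ± 0.11, or 0.761 of the WT level (adjusted p = 0.0413). Ctsh, an aminopeptidase cathepsin gene (chr9:89936205-89958148), had 3.10, 3.72, 3.63 and 3.61 in WT and 2.99, 2.97, 2.98 and 3.12 in KO, where WT litter 1 was below KO litter 4, and a difference of -0.50 ± 0.14 (adjusted p = 0.0456). It was the least abundant called member, with 219 to 458 reads in a library.

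Ctso and Ctsh were close to the threshold. Without KO litters 2 and 4, the differences were -0.31 for Ctso and -0.53 for Ctsh, neither called (adjusted p = 0.382 and 0.269), in a fit of 6 litters in which 1 row of all was called higher and 2 lower. Without WT litter 1, which held the lowest WT level for 30 of 36 members after LPS+IFNγ, 9 members were lower in KO, and without KO litter 3, 7 were lower and 1 higher. Of the 16707 rows, 971 were higher and 1084 lower without WT litter 1, and 1888 and 1980 without KO litter 3. When any of the other 6 litters was left out, 0 members passed. Over all rows the calls ranged from 0 to 1888 higher and from 1 to 1980 lower as single litters were left out.

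The next 3 by p were Psap, Ctsc and Cln3, of which none passed. Psap had -0.44 ± 0.13 (adjusted p = 0.0524), Cln3 -0.28 ± 0.092 (adjusted p = 0.0626), with all 4 KO libraries below all WT libraries, as for Ctso (2 members, beside 6.23% of all rows). No member had all 4 KO libraries above the WT ones (7.09% of all rows). Ctsc again lay higher in KO, by 0.72 ± 0.24 (adjusted p = 0.0621), with litters 2 and 4 of KO at 8.25 and 8.16 and litters 1 and 3 at 7.52 and 7.08, beside a WT range from 6.89 to 7.16. Litters 2 and 4 were also those with the lowest Gfap and Mbp. Of the 10 astrocyte markers, 5 were lower in KO after LPS+IFNγ and 0 higher, with a median difference of -0.79, and none was called without KO litters 2 and 4. Their part in the differences between genotypes was not tested. Tfe3, Tfeb, Lamp1 and Ctsd did not pass under either treatment, with differences after LPS+IFNγ of 0.17, -0.31, -0.30 and -0.20 and in vehicle of -0.16, -0.17, -0.24 and -0.23.

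**Figure D4:**
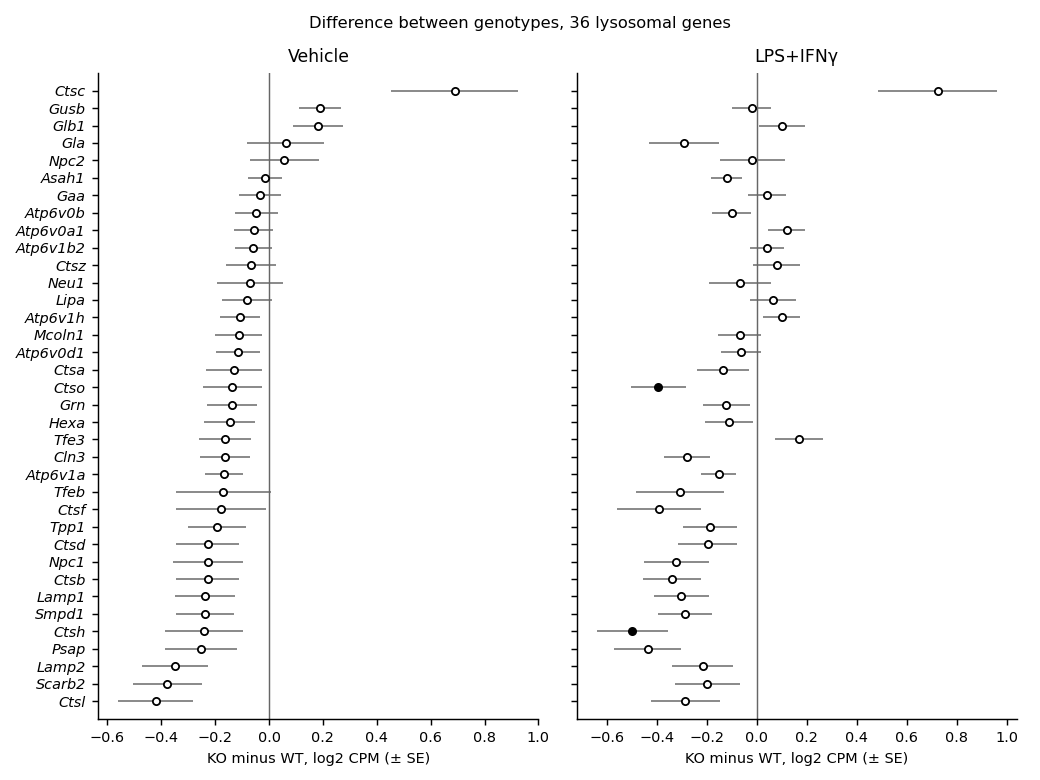
KO minus WT difference in log2 CPM (horizontal axis, ± SE from limma, 4 litters each) for the 36 members in vehicle and after LPS+IFNγ, ordered by the vehicle difference; filled points mark an adjusted p under 0.05. The difference is below 0 for 31 members in vehicle and 27 after LPS+IFNγ, Ctsc lies farthest to the right in both, and Ctso and Ctsh are the filled points.

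Salmon's estimates per transcript model allowed the use of transcripts within a gene to be compared, independently of the scaling. Shares of a gene's reads were computed for 34 transcript models of 16 members that held between 5% and 95% of the reads, and the change from vehicle to LPS+IFNγ was tested over the 8 litters with an exact two-sided sign-flip permutation test, whose smallest p is 0.0078. For 6 models all 8 litters moved the same way, which gave the smallest exact p and an adjusted p of 0.044 over the 34 models. The Psap model of 2676 bases held 45.8, 43.4, 47.1 and 44.7% of reads in WT vehicle libraries and 41.4, 38.7, 41.4 and 40.1% after treatment, and 42.2, 42, 49.1 and 41% and 38.3, 34, 43.4 and 33% in KO. The model of 2667 bases went the other way, from 35.1, 38.3, 34.2 and 37.2% to 40.9, 41.9, 41 and 40% in WT and from 39.9, 42.4, 34 and 44.5% to 44.9, 51.1, 37.7 and 51.4% in KO. The mean changes over 8 litters were -5.61 ± 1.61 and 5.45 ± 1.99 percentage points (SD), and a change in KO different from that in WT was not detected (exact permutation p = 0.229 and 0.371).

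The lengths of these Psap models differ by 9 bases. GENCODE M39 places an exon of 9 bases in 1 of 22 annotated Psap transcripts, at chr10:60133317-60133325 on the plus strand of GRCm39. The authors' models were not matched to it exon by exon. The exon is shown in capitals with 40 intronic bases on each side, because the share of the longer model fell in every litter.
Psap, chr10:60133277-60133365, plus strand: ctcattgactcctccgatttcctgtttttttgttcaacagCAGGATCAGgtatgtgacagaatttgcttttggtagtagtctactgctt

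The Lamp2 model of 1788 bases went from 15.1, 19.8, 19.2 and 18.1% to 14.9, 17.4, 16 and 15% in WT and from 16.9, 18.1, 17.6 and 17.1% to 14.3, 15, 14.7 and 14.9% in KO, a mean change of -2.45 ± 0.999 percentage points. The Lamp2 model of 3615 bases gained 2.31 ± 1.37 points. The total of Lamp2 rose at the same time, so the shorter model lost share within a larger total. The Tfe3 model of 3188 bases went from 13.4, 20.7, 17.6 and 18.4% to 9.58, 11.5, 10.1 and 6.67% in WT and from 22.5, 10.5, 11.5 and 15.7% to 13.9, 9.19, 6.13 and 5.1% in KO. The Atp6v0b model of 996 bases gained 4.85 ± 2.67 percentage points. Models that share most of their sequence share reads, and Salmon divides such reads by likelihood, so the shares are estimates with an error of their own.

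**Figure D5:**
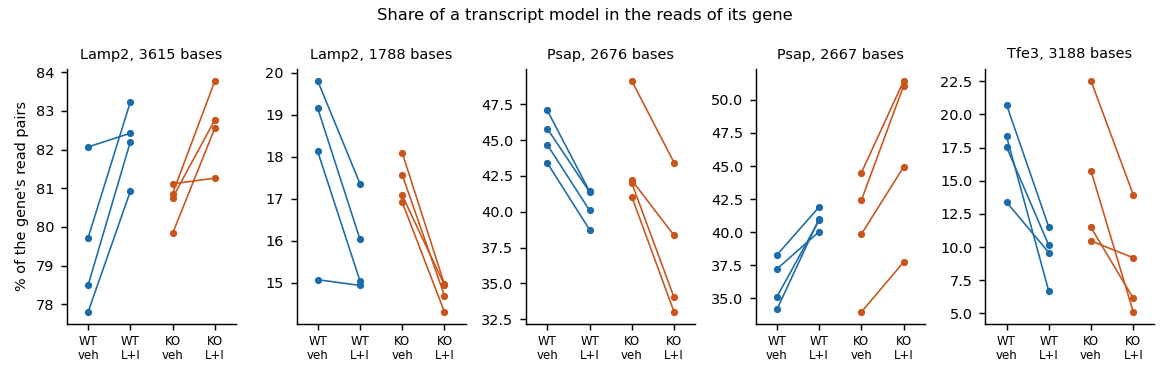
Share of a transcript model in its gene's reads (vertical axis, percent), with lines joining the vehicle (veh) and LPS+IFNγ (L+I) wells of a litter; each panel has its own axis. The Psap model of 2676 bases falls in all 8 litters and that of 2667 bases rises in all 8, and the Lamp2 and Tfe3 models shown move in 1 direction in all 8.

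The other genes of the pathway were counted from lists of 146 genes, of which 126 had a row. In WT 46 rose and 27 fell, beside 24.9% and 21.9% of all rows. In KO 47 rose and 36 fell, beside 26.6% and 25.5%. Under the other scalings 25 to 29 rose and 37 to 54 fell in WT, and 29 to 38 rose and 46 to 53 fell in KO. All rows then gave 2598 to 3132 rises and 4482 to 6036 falls in WT, and 2836 to 3473 and 5131 to 6527 in KO. Among the called genes, the largest rises in WT were those of Cd74, Slc15a3 and Serpina3g. Cd74, the invariant chain that cathepsins trim, had 0, 0, 0 and 0 estimated reads in the WT vehicle libraries and 12221, 20890, 12852 and 26708 after LPS+IFNγ, and in KO 2, 0, 5 and 0 before and 16616, 15591, 19536 and 17340 after treatment. Slc15a3, a lysosomal peptide and histidine transporter, had 0, 0, 3 and 0 reads in WT vehicle libraries and 14, 56, 36 and 53 after treatment, and Serpina3g, a serpin that inhibits cathepsins, had 0, 0, 0 and 0 and 11, 20, 3 and 22. With vehicle libraries at or near 0 no fold is given.

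Among the called genes, the largest falls in WT were those of Ifi30, Cst3 and Gm2a. Ifi30, the lysosomal thiol reductase of antigen processing, had a log2 CPM of 1.25, 1.65, 1.35 and 1.66 before and 0.53, 0.71, 0.49 and 0.92 after treatment in WT, a response of -0.82 ± 0.23 (adjusted p = 0.0124), from 39 to 118 reads in a WT library. Cst3, the abundant secreted cathepsin inhibitor cystatin C, changed by -0.79 ± 0.10 in WT and -0.89 ± 0.10 in KO, and Gm2a, the activator of ganglioside breakdown, by -0.78 ± 0.10 and -1.27 ± 0.10, with an adjusted p of 7.1e-05 and 4.1e-05 in WT. These 3 falls kept their direction in both genotypes under the 4 other scalings. Between genotypes, 0 of the 126 genes passed in vehicle, and after LPS+IFNγ 1 was higher in KO (Laptm4b) and 8 were lower, namely Arsa, Atp6v0e2, Fuca1, Gm2a, Ppt1, Slc17a5, Slc29a3 and Tpcn1, where 4.4% of all rows were higher and 4.41% lower. None of these 9 was called without KO litters 2 and 4, when 1 row was higher and 2 lower in all, nor without litter 2, 3 or 4 of WT or litter 2 or 4 of KO. DESeq2 called 3 of the 126 genes higher and 17 lower after LPS+IFNγ, and 2 lower in vehicle. Of the 16066 rows in that fit, 1241 were higher and 1246 lower after LPS+IFNγ, and 448 and 253 in vehicle.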

How the data were processed

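Primary mouse astrocytes of 4 WT and 4 Nlrx1-/- litters were sequenced as paired, unstranded, poly(A)-selected libraries. The authors estimated reads per transcript with Salmon 1.7.0 on GRCm39, and each library came with deposited expected counts and TPM for 129698 transcripts. From gene sums the authors made a filtered CPM table scaled by TMM factors, treated here as a deposited signal because its columns sum to different totals, and its log2 values. These deposited log2 CPM (16707 rows) were tested with limma 3.58.1 (intensity trend, Benjamini-Hochberg over all rows, threshold 0.05, R 4.3.3), with litters as blocks for responses and interaction and without litter terms between genotypes. The labels pair wells by replicate number within a genotype, and the authors' methods describe the biological replicates as litters. The deviations of paired wells from group means correlated at 0.18 to 0.52. Genotype differences and responses share vehicle libraries.

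As alternatives, edgeR 4.0.16 and DESeq2 1.42.0 ran on expected counts summed by RefSeq symbol and rounded, which held 96.7 to 97.3% of reads. That sum fell short for Cln3, Ctsc, Gla, Mcoln1 and Atp6v1h. Reads of overlapping antisense genes cannot be told apart without strand. Tests were run on simulated data first. Positions came from GENCODE M39 and promoters from RefSeq (GRCm38.p6).

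Members, gene lists and tests were chosen with earlier results of these data known. Values in every library were given for the 5 called members with the largest rise and fall in each response, the 5 of lowest p in the other comparisons, Tfeb, Tfe3, Lamp1, Ctsd and Ctss, and values for the 3 other pathway genes with the largest rise and fall in WT. Motifs, transcript shares and fits without KO litters 2 and 4 were added after the data had been seen.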

Additional observations from a re-analysis of the deposited data

Results flagged for a closer look

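In each of the 4 groups of libraries and in the litter responses of the 21 named members, 126 sets of 4 values were examined for a value far from the other 3, and 2 were found, where chance alone gives about 1 in 20 sets. The Ctsc response of WT litter 3 was 1.92 on the log2 scale, above the other 3 WT litters, and its vehicle library had the lowest Ctsc level of all. The Ctsh level of KO litter 4 after LPS+IFNγ was 3.12 log2 CPM, above the other 3 KO litters, which lay within a narrow range. The Psap response rose in 4 of 4 WT litters and fell in 4 of 4 KO litters, with an interaction of -0.18 on the log2 scale (limma, adjusted p = 0.203) that did not pass the test.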

How the results depend on the processing

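Pairing wells by litter was part of the responses' design. With no replicate block, 8 members rose and 3 fell in WT, and 11 rose and 4 fell in KO. All rows then gave 3303 rises and 2651 falls in WT, and 3650 and 3299 in KO. WT and KO litters share only a number (correlation of deviations -0.18 to 0.29). A replicate block on that number gave 1 member higher in KO in vehicle, and 1 higher and 6 lower after LPS+IFNγ. Over all rows it gave 358 higher and 233 lower in vehicle, and 1370 and 1445 after LPS+IFNγ. The scaling moved the counts of the responses. In WT, 7 members rose with upper quartile factors, and 6 rose and 14 fell with unadjusted library sizes, and 13 fell with quantile normalization. In KO, 8 rose and 13 fell with upper quartile factors, 7 and 17 with quantile normalization, 6 and 18 with unadjusted sizes, and 9 and 13 with equal medians. Over all rows, the share of rises among calls went from 53.2% to 30.1% in WT and from 51.1% to 30.3% in KO with unadjusted sizes. In WT, 2940 of 16066 rows rose and 4482 fell with upper quartile factors. Of 16707 rows, 3132 rose and 4777 fell with quantile normalization, and 2598 and 6036 with unadjusted sizes. The KO rows gave 3103 rises and 5131 falls with upper quartile factors and 3327 and 5208 with quantile normalization. Unadjusted sizes gave 2836 and 6527 there, and equal medians 3473 and 5433.

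Without KO litters 2 and 4, 8 members rose in KO, beside 3396 of all 16707 rows. After LPS+IFNγ, 0 members were lower in KO without these litters, at a threshold of 0.01, in edgeR with no low-count filter and from the 8 treated libraries only, 4 with unadjusted sizes, and 5 (1 higher) in DESeq2 and with litter as a random block. Over all rows, 1 was higher and 2 lower without KO litters 2 and 4. At a threshold of 0.01, and also from the 8 treated libraries only, 0 rows were higher and 1 lower. With no low-count filter, edgeR called 334 of 24219 rows higher and 300 lower. With unadjusted sizes, 658 rows were higher and 720 lower. DESeq2 gave 1241 and 1246 of 16066, and the random block 971 and 1063 of 16707. Leaving out 1 litter gave 8 to 12 rises and 5 to 7 falls in WT, 11 to 14 and 6 to 7 in KO, 0 to 0 for the interaction, 0 to 1 higher and 0 to 3 lower in vehicle (3 without KO litter 3, 2 without WT litter 1), and 0 to 1 higher and 0 to 9 lower after LPS+IFNγ. In vehicle, 688 of all rows were higher and 930 lower without KO litter 3, and 331 and 163 without WT litter 1.

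The Ctsd response in WT was -0.12 with quantile normalization, -0.059 with upper quartile factors, -0.13 with unadjusted sizes (adjusted p = 0.0487) and -0.070 with equal medians, and in KO -0.10, -0.052, -0.11 and -0.031, and -0.0013 to 0.11 without 1 litter. The Tfeb response in KO was -0.0085, -0.055, -0.13 and -0.050, and -0.014 to 0.15 without 1 litter. The Gla interaction was 0.11 in edgeR, 0.12 in DESeq2, 0.10 with upper quartile factors and 0.11 with no filter. The Ctsd interaction was -0.035 to 0.071 without 1 litter and -0.034 without KO litters 2 and 4, where Tfeb in vehicle was 0.018. The cause of these moves was not tested. Of the other values of named members, each in the comparisons it was named for, 1002 kept direction and side of the threshold. Of the rest, 38 lost their call and 33 gained one. Outside this tally, more members changed direction under at least 1 of the other scalings. In WT these were Ctsb, Ctsh, Hexa, Gaa, Gusb, Glb1, Gla, Neu1, Psap, Lipa, Scarb2, Atp6v0a1 and Atp6v0b, of which Gaa and Gla had been called. In KO they were Hexa, Neu1 and Atp6v0d1. Depth limits Ctss, which was at or near 0 reads, and with 4 litters a group the spread between litters limits the genotype comparisons.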

Other observations

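Of 15 V-ATPase subunits and accessory proteins outside the members that had a row, 6 rose and 0 fell in WT. In KO 7 rose and 2 fell. Over all rows, 24.9% rose and 21.9% fell in WT, and 26.6% and 25.5% did in KO. With the other scalings there were 2 rises and 1 to 5 falls in WT, and 2 to 6 rises and 4 to 5 falls in KO. All rows gave 2598 to 3132 rises and 4482 to 6036 falls in WT with them, and 2836 to 3473 and 5131 to 6527 in KO. The largest rises, chosen after their values were seen, were those of Tcirg1, the a3 subunit gene best known from osteoclasts, with 1.15 ± 0.12 (log2 ± SE) in WT and 1.37 ± 0.12 in KO, and of Atp6v1d, the D subunit of the rotor, with 0.97 ± 0.062 and 1.08 ± 0.062. The adjusted p in limma was 1.3e-05 and 1.5e-07 in WT, and neither response differed between the genotypes beyond the test (adjusted p = 0.574 and 0.574).

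Of 13 MiT/TFE factors and upstream regulators other than Tfeb and Tfe3, 5 rose and 4 fell in WT. In KO 4 rose and 2 fell. Over all rows, 24.9% rose and 21.9% fell in WT, and 26.6% and 25.5% did in KO. With the other scalings 1 to 2 rose and 6 to 7 fell in WT, beside 2598 to 3132 rises and 4482 to 6036 falls over all rows. Rptor, which anchors mTORC1 to its substrates, had a WT response of 0.76 ± 0.046, Flcn, which acts on the Rag GTPases that hold TFEB and TFE3 at the lysosome, one of -0.49 ± 0.076, and Mitf, a factor of the same family, one of -0.64 ± 0.21 (limma, adjusted p = 7.4e-08, 2.3e-04 and 0.0284). These 3 were also chosen after their values were seen.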
